A study of Homo sapiens with 33 samples.

Results

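The genes described here are 10 members of the BCL2 family of apoptosis regulators: BCL2, BCL2A1, BCL2L1, BCL2L11, MCL1, BID, BAK1, BAX, BBC3 and PMAIP1. They were taken by name, and each was followed with every probe set that lists it as its only gene. A probe set is a group of short oligonucleotides that are read together as 1 value, and some probe sets match several transcripts or genes. Of the 10 genes 9 had such a probe set, with 30 probe sets among the 54613 that were analysed on the array, and BCL2 was covered by 4 of them. The only probe set of BBC3 lists several genes, so no value is given for it.

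The cells were THP-1, a human monocytic leukaemia line, and RNA of each culture well was hybridised to 1 Affymetrix HG-U133 Plus 2 array, 33 in all. At 40 h the groups were all-trans retinoic acid (RA, 20 nM, renewed after 16 h) with tumor necrosis factor (TNF, 5 ng per ml) present for the last 24 h in 5 wells, TNF alone for 24 h in 5 wells, RA alone for 40 h in 5 wells, and the ethanol vehicle in 6 wells. A time course without TNF covered 2 wells given RA for 2 h, 2 for 6 h and 3 for 16 h, and 5 wells that received vehicle until a harvest at 16 h. Its 40 h point took 2 of the RA wells above, and its vehicle group of 8 took 3 of the vehicle wells above. All groups are cultures of 1 leukaemia line, so the wells differ as cultures and not as donors. The wells were independent cultures per the series' design text, and p-values measure the spread between such wells.

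The BCL2 family decides whether the outer membrane of the mitochondrion stays closed. BAX and BAK1 form the pores that release cytochrome c, survival members such as BCL2, BCL2L1 (BCL-XL), MCL1 and BCL2A1 (A1) hold them back, and BH3-only members such as BID, BCL2L11 (BIM), PMAIP1 (NOXA) and BBC3 (PUMA) bind the survival members or activate the pore formers. In myeloid cells MCL1 and BCL2A1 are known for short half-lives and for their part in the survival of monocytes and granulocytes, and BCL2A1 is a known target of NF-kB, the transcription factor that TNF activates.

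Values are the deposited ones, on a log2 scale relative to the median of the same array, so 0 is the array median. Signals, where given, were recovered from them in the units of GCOS, the Affymetrix software. Array medians lay between 18.9 and 45.2 signal units, and replicate arrays of a group correlated at r = 0.801 to 0.907 over all probe sets. By the record numbers that the labels give, the arrays form 2 runs, of 12 arrays (set 1) and of 21 (set 2). At 40 h each group has 3 arrays in set 1 and the rest in set 2, and the time course lies in set 2. The set is a covariate at 40 h, and effects within each set are given for many of the family's calls. The log2 ratio of the 3' to the 5' control probe set of ACTB, a sign of RNA or labelling quality, was 0.906 to 1.888 in set 1 and 0.126 to 0.996 in set 2. Within set 1 it was 0.906 to 1.032 with RA plus TNF and 1.329 to 1.435 with TNF alone. It was 1.028 to 1.888 there with RA alone and 0.994 to 1.813 with vehicle. In set 2 at 40 h it was 0.581 and 0.407 with RA plus TNF, inside the 0.299 to 0.996 of vehicle. Its part in the calls at 40 h was not tested. Of the monocytic marker genes 8 of 9 lay above the highest array median (the exception, FCN1, had a mean of 14.4 units), as did 4 of 5 immature myeloid markers, MPO being the exception at 31.7 units. Markers of lymphocytes, red cells and platelets, and epithelium or fibroblasts had median signals of 18.6 to 41.5 units. In each of these 4 lists 1 gene had a mean above the highest array median: NKG7 (237 units), CD79A (73.7), HBB (46.0) and COL1A1 (79.8). The treatments were visible in known target genes: DHRS3, a retinal reductase induced by RA, rose by 4.25 ± 0.31 with RA alone (adjusted p = 1.15e-11), and TNFAIP3, an NF-kB target, rose by 3.69 ± 0.17 with TNF alone (adjusted p = 1.67e-16).

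Fold changes below are log2 differences between group means, with standard errors, from limma fits over 27307 probe sets that passed a brightness filter. A probe set was called at a Benjamini-Hochberg adjusted p under 0.05. Counts at an unadjusted p under 0.05 are given without the share of all probe sets, so they do not show whether the genes stood out. The filter kept 26 of the 30 probe sets of the family. The 4 that it removed had mean values under the array median: 1 each of BCL2 (207005_s_at), BCL2L1 (231228_at), BCL2L11 (208536_s_at) and MCL1 (227175_at), with mean signals of 21.6, 13.8, 18.9 and 12.6 units. A change in bulk RNA cannot tell fewer cells of a kind from less transcript per cell.

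RA plus TNF against vehicle gave the most calls in the family among the comparisons made. There 8 probe sets rose and 2 fell of 26, where 14.9% of all probe sets tested were called (9.15% higher and 5.75% lower), and their median log2 fold change was 0.41, against 0.04 over all probe sets. They belong to BCL2A1, BID, MCL1, BAK1 and PMAIP1, which rose, and to BCL2, which fell. The groups did not overlap for 8 of the 26, against 6.93% of all probe sets. TNF alone against vehicle raised 7 probe sets and lowered 1 (7.79% of all called, 4.8% higher and 2.98% lower), with no overlap for 3 (3.64% of all). RA alone against vehicle raised 2 and lowered 1 (2.86% of all called, 2.06% higher and 0.798% lower), with no overlap for 1 (1.6% of all). The single treatments and the combination share the 6 vehicle arrays.

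**Figure D1:**
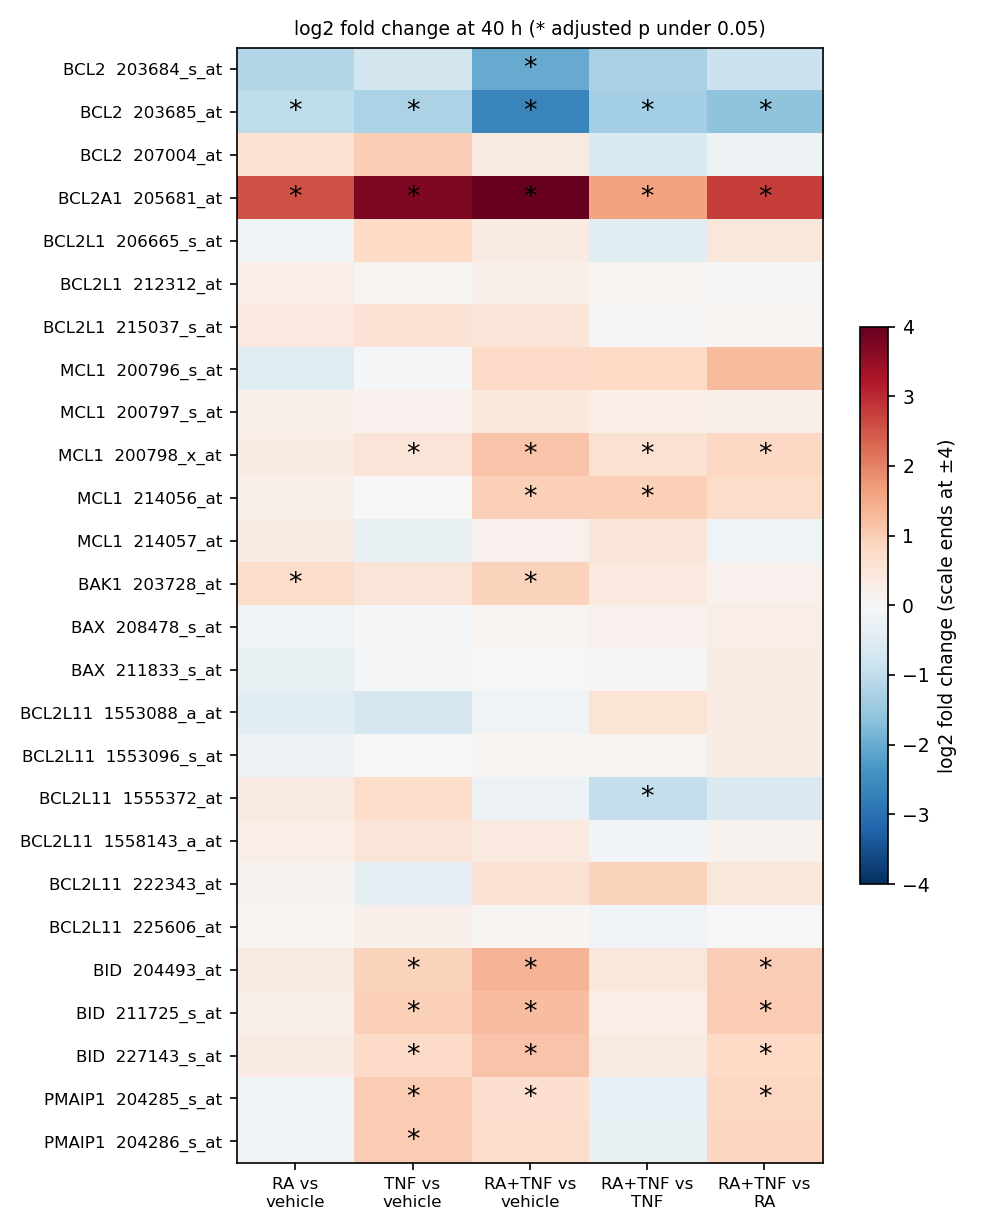
Log2 fold change of the 26 tested probe sets of the BCL2 family in the 5 comparisons at 40 h, with 1 row for each probe set and 1 column for each comparison. Red is higher and blue lower in the group named first, the colour scale ends at 4, and asterisks mark adjusted p under 0.05. BCL2A1 and the probe set 203685_at of BCL2 have an asterisk in all 5 columns, in opposite directions, and the 5 probe sets of BCL2L1 and BAX have none.

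RefSeq sequences are shown for the 250 bases before the outermost annotated start of BCL2A1, BID, BAK1 and PMAIP1, the members that rose under RA plus TNF and whose promoter window begins there, so that their base composition can be compared (GRCh38.p14, minus strand for the first 3 and plus strand for PMAIP1, written 5' to 3'). Capitals mark CG dinucleotides and the motif TATAAA.
BCL2A1, chr15:79971197-79971446: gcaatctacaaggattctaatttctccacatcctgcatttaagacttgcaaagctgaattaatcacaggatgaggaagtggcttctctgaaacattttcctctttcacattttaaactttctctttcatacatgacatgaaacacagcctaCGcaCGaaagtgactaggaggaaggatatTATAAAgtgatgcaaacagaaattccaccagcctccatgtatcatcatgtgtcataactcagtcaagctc
BID, chr22:17774666-17774915: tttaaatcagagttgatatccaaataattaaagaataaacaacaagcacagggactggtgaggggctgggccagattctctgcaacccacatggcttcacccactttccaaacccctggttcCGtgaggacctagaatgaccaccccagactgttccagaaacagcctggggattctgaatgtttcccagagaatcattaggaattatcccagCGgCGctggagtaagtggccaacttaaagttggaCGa
BAK1, chr6:33580277-33580526: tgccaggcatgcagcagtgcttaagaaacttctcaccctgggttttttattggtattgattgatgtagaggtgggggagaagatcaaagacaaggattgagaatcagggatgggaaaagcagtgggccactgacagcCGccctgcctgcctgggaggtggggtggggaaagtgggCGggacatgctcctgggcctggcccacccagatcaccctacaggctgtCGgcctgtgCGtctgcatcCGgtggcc
PMAIP1, chr18:59899746-59899995: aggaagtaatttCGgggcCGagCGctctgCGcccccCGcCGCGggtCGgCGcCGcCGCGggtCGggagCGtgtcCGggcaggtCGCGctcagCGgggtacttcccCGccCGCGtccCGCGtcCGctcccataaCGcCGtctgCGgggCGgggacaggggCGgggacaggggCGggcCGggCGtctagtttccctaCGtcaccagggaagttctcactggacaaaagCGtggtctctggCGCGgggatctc

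The stretch of BCL2A1 held 2 CG dinucleotides and 38.8% G and C, against 4 and 47.6% for BID, 5 and 58.0% for BAK1 and 36 and 72.8% for PMAIP1. The median over 35116 stretches of the same length was 11 CG dinucleotides and 58.0% G and C, and 22.9% of them had 2 CG or fewer. BCL2A1 alone of the 4 had TATAAA on its own strand, first base 70 bases before the start, as had 6.8% of all such stretches. A promoter window of 300 bases, reaching 50 bases past the start, was available for 9 of the 10 genes, with 14 windows in all. BID has several annotated starts. Its window at the outermost start held 6 CG dinucleotides and 48.7% G and C, while its other windows held 29 to 37 and 68.7% to 78.0%. The stretch printed for BID thus does not stand for its other starts. On either strand, the motif GGGNNTTCC was in 1 of the 14 (a window of BID) and in 6.58% of all 35116 windows. It resembles NF-kB sites but leaves out their longer forms, so these are not counts of such sites. The retinoid receptor half-site AGGTCA was in 0 of the 14 and in 13.83% of all, and TATAAA was in 2 of the 14 and in 11.53% of all. No window held more than 1 kind of these motifs, those with TATAAA being of BCL2A1 and BCL2L1, and their presence or absence in such a window is a description of its letters.

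BCL2A1 had the largest log2 differences of the members at 40 h. Its probe set read 5.70, 5.26, 5.11, 5.26 and 5.50 in the wells with RA plus TNF. With TNF alone it read 4.02, 3.74, 3.96, 3.54 and 3.57. With RA alone it read 2.25, 1.24, 2.06, 3.61 and 3.80, against a lowest, median and highest vehicle value of -0.53, 0.20 and 0.66. Every RA plus TNF well lay above every TNF well, and every treated well lay above every vehicle well, while the 2 RA wells of array set 2 (3.61 and 3.80) fell inside the range of the TNF wells. Mean signals were 1309 units with both, 463 with TNF, 224 with RA and 37.3 with vehicle, the last close to the array medians. No detection calls were used, so the vehicle level is not shown to be above background, and its differences from vehicle are given on the log2 scale with no fold.

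The rise of BCL2A1 over vehicle was 5.33 ± 0.30 with both agents (adjusted p = 3.58e-15). It was 3.73 ± 0.30 with TNF alone (adjusted p = 5.96e-11). With RA alone it was 2.55 ± 0.30 (adjusted p = 2.72e-07). RA plus TNF exceeded TNF alone by 1.60 ± 0.31 (adjusted p = 7.29e-04) and RA alone by 2.78 ± 0.31 (adjusted p = 5.95e-08). So each agent added to the level reached with the other, while TNF alone and RA alone were not tested against each other. The interaction, which is the effect of RA under TNF minus its effect without TNF, was -0.95 ± 0.43 (adjusted p = 0.549). Within array sets 1 and 2 the effect of both agents was 5.33 and 5.25, and that of TNF 3.88 and 3.43. The effect of RA was 1.82 in set 1 and 3.58 in set 2, and RA plus TNF over RA was 3.51 and 1.68. A test of the difference between sets, added after seeing the data, gave 1.76 ± 0.46 for the effect of RA (adjusted p = 0.191), and the direction was the same in both sets.

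BCL2 moved the other way in its probe set of highest signal, 203685_at. It read 2.25, 2.13, 2.23, 2.21 and 3.01 with RA plus TNF. It read 3.49, 3.05, 3.54, 4.20 and 4.37 with TNF alone. With RA alone it read 3.93, 3.87, 3.59, 3.96 and 4.61, against a lowest, median and highest vehicle value of 4.16, 5.24 and 5.51. Wells with both agents lay below all wells of the other 3 groups, and the single treatments overlapped each other. The lowest vehicle well (4.16) lay inside both ranges of single treatment. Mean signals were 165 units with both, 445 with TNF, 534 with RA and 1126 with vehicle.

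This transcript fell by 2.64 ± 0.18 with both agents (6.24-fold lower, adjusted p = 5.46e-13), by 1.28 ± 0.18 with TNF (2.43-fold lower, adjusted p = 6.25e-06) and by 1.02 ± 0.18 with RA (2.02-fold lower, adjusted p = 3.68e-04). The difference of RA plus TNF from TNF alone was -1.36 ± 0.19 (adjusted p = 5.44e-06), and that from RA alone was -1.62 ± 0.19 (adjusted p = 1.43e-07). The interaction was -0.34 ± 0.26 (adjusted p = 0.821). On the log2 scale the departure of the joint fall from the sum of the single falls was thus not called. Array sets 1 and 2 gave -2.54 and -2.79 for both agents, -1.38 and -1.12 for TNF, and -0.94 and -1.12 for RA. No array left out in turn removed a call at 40 h.

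**Figure D2:**
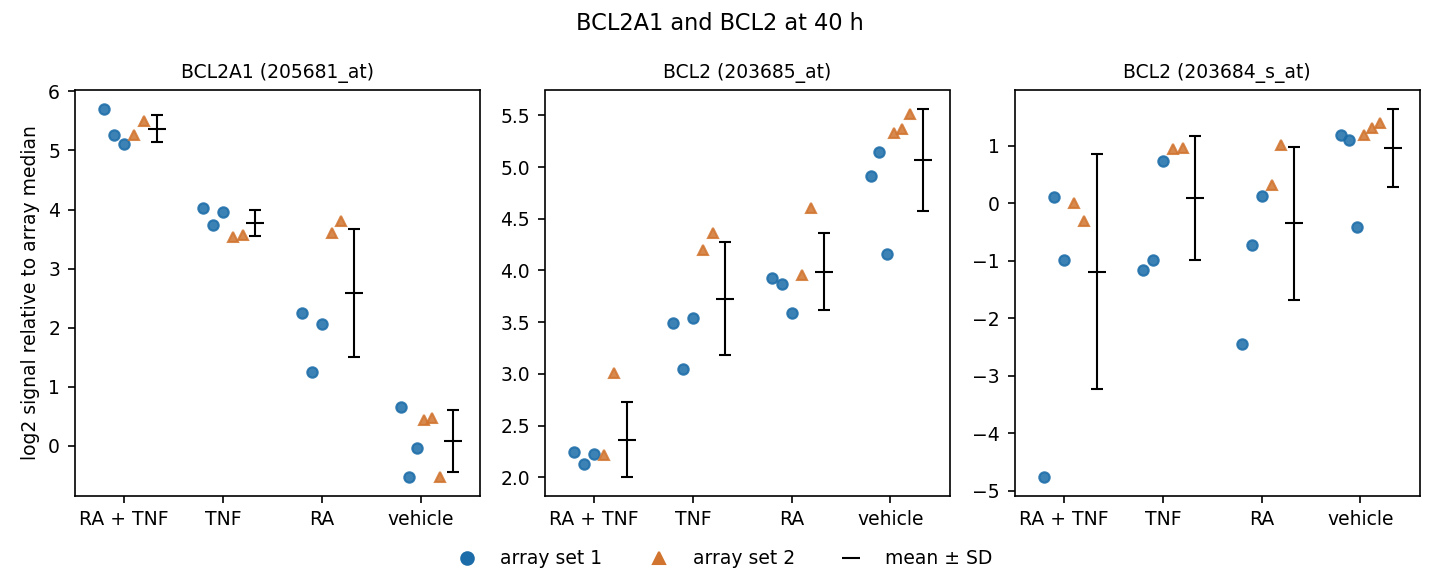
Log2 values relative to the array median for the probe set of BCL2A1 and 2 probe sets of BCL2 at 40 h, with 1 point for each array (circles for array set 1, triangles for array set 2) and bars for the mean ± SD of 5 arrays, or 6 for vehicle. BCL2A1 runs from 5.70 with RA plus TNF down to -0.53 with vehicle, BCL2 (203685_at) from 2.13 with RA plus TNF up to 5.51 with vehicle, and BCL2 (203684_s_at) has 1 RA plus TNF array at -4.76, close to the signal floor.

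The other probe sets of BCL2 gave less. The dim probe set 203684_s_at read -4.76, 0.11, -0.98, -0.01 and -0.32 with RA plus TNF, against a lowest, median and highest vehicle value of -0.42, 1.18 and 1.40. The reading of -4.76 is 1.1 signal units, close to the floor of 1 unit, so its depth is not a measured level. This probe set fell by 2.01 ± 0.66 (adjusted p = 0.035), with the groups overlapping. The call was lost without RA plus TNF replicate 1 or 5 or vehicle replicate 1, 2 or 6, with adjusted p-values of 0.0108 to 0.142 over the 11 arrays left out in turn. It was not called with TNF (-0.73 ± 0.66, adjusted p = 0.619) or with RA (-1.17 ± 0.66, adjusted p = 0.548). The probe set 207004_at was dim too, with a mean signal of 41.2 units against 44.6 for 203684_s_at, so its sign carries little weight. It ran from -1.34 to 1.44 with RA plus TNF and from -2.13 to 0.65 with vehicle, and its difference of 0.37 ± 0.59 was not called (adjusted p = 0.75). With TNF alone it stood at 0.97 ± 0.59 (adjusted p = 0.397), opposite in sign to 203685_at. The 2 probe sets that fell correlated at r = 0.655 over the 33 arrays, while 207004_at stood at -0.007 and -0.143 with 203685_at and 203684_s_at. These correlations share the treatments and the array sets.

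MCL1, a survival member that binds BAK1, has 5 tested probe sets, and they did not move alike. The probe set 200798_x_at read 6.41, 6.17, 6.01, 6.58 and 6.68 with RA plus TNF and 5.79, 5.48, 5.67, 5.96 and 5.90 with TNF alone. It read 5.52, 4.60, 5.34, 6.11 and 6.14 with RA alone, against a lowest, median and highest vehicle value of 4.79, 5.26 and 5.83. RA plus TNF wells lay above all TNF and all vehicle wells. The rise with both agents was 1.14 ± 0.16 (adjusted p = 1.64e-06), with 1.23 and 1.02 in array sets 1 and 2. RA plus TNF exceeded TNF by 0.61 ± 0.16 (adjusted p = 0.0182) and RA by 0.83 ± 0.16 (adjusted p = 6.33e-04). The first of these was lost without RA plus TNF replicate 1 or TNF replicate 4 or 5, at adjusted p-values of up to 0.0652. TNF alone gave 0.53 ± 0.16 (adjusted p = 0.0323), a call that was lost without 6 of the 11 arrays, namely TNF replicates 1, 2 and 3 and vehicle replicates 1, 4 and 6, at adjusted p-values of up to 0.109.

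A second probe set of MCL1, 214056_at, read 3.04, 2.72, 3.28, 2.68 and 2.55 with RA plus TNF and 1.85, 2.13, 2.28, 1.75 and 1.50 with TNF, against a lowest, median and highest vehicle value of 1.47, 1.92 and 2.26. Wells with both agents were again above all TNF and all vehicle wells. It rose by 0.95 ± 0.24 over vehicle (adjusted p = 0.00589, with 1.10 and 0.72 in array sets 1 and 2) and by 0.95 ± 0.25 over TNF (adjusted p = 0.0176). The second of these was lost without RA plus TNF replicate 3 or TNF replicate 5, at adjusted p-values of up to 0.0706. The probe set of MCL1 with the highest signal, 200797_s_at, read 6.99, 6.91, 6.58, 7.32 and 7.32 with both agents, against a lowest, median and highest vehicle value of 5.87, 6.73 and 7.00, and was not called (0.42 ± 0.17, adjusted p = 0.0977). Neither 200796_s_at (0.77 ± 0.44 with both agents) nor 214057_at (0.18 ± 0.20) was called at 40 h, and 214057_at correlated at -0.452 with 200798_x_at over the 33 arrays. The MCL1 transcript is known to be spliced into long and short forms, and the files do not say which form each probe set reads.

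BCL2L1, the survival member BCL-XL, was called in none of the 10 comparisons. Its probe set of highest signal, 212312_at, read 2.28, 1.86, 1.93, 2.71 and 2.64 with RA plus TNF, against a lowest, median and highest vehicle value of 1.55, 2.08 and 2.80. The ranges coincided, and the difference was 0.22 ± 0.22 (adjusted p = 0.584). With TNF it was 0.11 ± 0.22 (adjusted p = 0.854), and with RA 0.28 ± 0.22 (adjusted p = 0.748). The other 2 tested probe sets were dim, with mean signals of 36.7 and 59.4 units.

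Of the pore formers, BAK1 rose and BAX was not called. BAK1 read 3.30, 3.24, 3.31, 3.52 and 3.74 with RA plus TNF and 2.76, 3.23, 2.77, 3.02 and 3.34 with TNF. It read 2.89, 2.88, 3.09, 3.55 and 3.81 with RA, against a lowest, median and highest vehicle value of 1.86, 2.60 and 3.04. Wells with both agents lay above all vehicle wells, and the single treatments overlapped vehicle. BAK1 rose by 0.91 ± 0.19 with both agents (adjusted p = 5.43e-04) and by 0.74 ± 0.19 with RA (adjusted p = 0.0198), and stood at 0.52 ± 0.19 with TNF (adjusted p = 0.0916, and 0.0425 after quantile normalization). Array sets 1 and 2 gave 0.93 and 0.88 for both agents and 0.60 and 0.93 for RA. The call with RA was lost without RA replicate 4 or 5 or vehicle replicate 3 or 4, at adjusted p-values of up to 0.0799. Vehicle wells of set 2 averaged 2.75 at 40 h and 3.29 at 16 h, and wells with RA for 16 h averaged 3.32. In the time course the 40 h RA wells averaged 3.68 against 3.09 in the 8 vehicle wells, and BAK1 was not called there. Its rise with RA alone thus rests on the 40 h vehicle wells.

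The 2 probe sets of BAX ran from 2.71 to 3.20 and from 2.54 to 3.23 with RA plus TNF, and from 2.38 to 3.15 and from 1.99 to 3.54 with vehicle. Their differences of 0.11 ± 0.21 and -0.02 ± 0.21 had adjusted p-values of 0.795 and 0.972. The vehicle wells of the second were spread more widely than the wells with both agents.

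Among the BH3-only members, BID, which caspase-8 cleaves downstream of death receptors, rose wherever TNF was present. All 3 of its probe sets were called with TNF alone and with both agents, and none with RA alone. The probe set 204493_at read 4.97, 4.55, 4.85, 4.77 and 4.57 with RA plus TNF and 4.10, 3.83, 4.21, 4.64 and 4.60 with TNF. It read 3.70, 3.17, 3.43, 4.00 and 4.50 with RA, against a lowest, median and highest vehicle value of 2.86, 3.46 and 3.74. Every well with TNF, alone or with RA, lay above every vehicle well. It rose by 1.35 ± 0.17 with both agents (2.55-fold, adjusted p = 3.88e-07) and by 0.89 ± 0.17 with TNF (adjusted p = 6.55e-04).

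The other probe sets of BID, 211725_s_at and 227143_s_at, rose by 1.22 ± 0.17 and 1.14 ± 0.17 with both agents, and by 0.94 ± 0.17 and 0.78 ± 0.17 with TNF. Over vehicle, the effects of both agents in array sets 1 and 2 were 1.57 and 1.02 for 204493_at, 1.53 and 0.77 for 211725_s_at and 1.17 and 1.04 for 227143_s_at. RA plus TNF exceeded RA by 0.98 ± 0.18, 1.01 ± 0.18 and 0.81 ± 0.18 for the 3 probe sets (adjusted p = 2.34e-04, 1.23e-04 and 0.00182). None of the 3 was called for RA plus TNF over TNF, where the largest difference was 0.47 ± 0.18 for 204493_at (adjusted p = 0.14, and 0.0381 after quantile normalization). The 3 probe sets of BID correlated at 0.876 to 0.933 over the 33 arrays. In array set 1 RA plus TNF over RA was 1.35, 1.49 and 1.16, and in set 2 it was 0.42, 0.29 and 0.29, a difference between sets that passed no adjusted threshold (adjusted p = 0.391, 0.216 and 0.406, test added after seeing the data).

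PMAIP1, the BH3-only protein NOXA that binds MCL1, rose with TNF alone. Its probe set 204285_s_at read 5.25, 5.33, 5.07, 5.02 and 5.29 with RA plus TNF and 6.13, 5.76, 6.00, 4.94 and 4.76 with TNF. It read 4.45, 4.27, 4.38, 4.01 and 4.68 with RA. The 3 vehicle wells of array set 1 read 5.63, 5.09 and 4.78, and the 3 of set 2 read 3.75, 3.92 and 3.48, so the vehicle group itself was split by array set. TNF alone gave 1.00 ± 0.22 (adjusted p = 0.00208), with 0.79 and 1.13 in the 2 sets. The second probe set, 204286_s_at, rose by 1.03 ± 0.28 with TNF (adjusted p = 0.0154), a call lost without TNF replicate 1 (adjusted p = 0.0531), and stood at 0.87 ± 0.29 for both agents over RA (adjusted p = 0.0524, and 0.0376 after quantile normalization). Both agents over vehicle gave 0.72 ± 0.28 for it (adjusted p = 0.078), which is -0.13 in array set 1 and 1.76 in set 2. The difference between sets had an adjusted p of 0.106, 0.00981 on the software's signal scale and 0.0192 after quantile normalization.

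RA plus TNF gave 0.68 ± 0.22 for 204285_s_at over vehicle (adjusted p = 0.031), made of 0.05 in array set 1 and 1.44 in set 2. The difference between the sets was 1.39 ± 0.32 (adjusted p = 0.106, and 0.00345 on the software's signal scale, both added after seeing the data). The call was lost without RA plus TNF replicate 4 or 5 or vehicle replicate 4, 5 or 6, all of set 2, at adjusted p-values of up to 0.121, and under quantile normalization (adjusted p = 0.0666). The rise of PMAIP1 with both agents therefore rested on array set 2. RA plus TNF over RA was 0.83 ± 0.23 (adjusted p = 0.0141), with 0.85 and 0.81 in the 2 sets and no overlap, and was lost without RA replicate 2 or RA plus TNF replicate 5, at adjusted p-values of up to 0.0516. The effect of RA alone was -0.81 in set 1 and 0.63 in set 2 (difference adjusted p = 0.0811, 0.0418 on the signal scale and 0.0454 after quantile normalization), and it was not called over both sets. ACTB 3' to 5' ratios also differ between the sets, and their part in this was not tested.

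BCL2L11, the BH3-only protein BIM, has 6 tested probe sets, of which 1 was called once. Its probe set of highest signal, 225606_at, read 5.25, 4.92, 5.14, 4.72 and 4.93 with RA plus TNF and 5.28, 4.94, 5.35, 5.07 and 5.07 with TNF, against a lowest, median and highest vehicle value of 4.40, 4.92 and 5.40. These ranges overlapped, and no comparison called it. Another, 1558143_a_at, stood at 0.53 ± 0.18 with TNF (adjusted p = 0.0659, and 0.0123 after quantile normalization). The probe sets did not move alike with TNF. There 1553088_a_at stood at -0.68 ± 0.27 (adjusted p = 0.128, and 0.0658 after quantile normalization), and 225606_at at 0.21 ± 0.17 (adjusted p = 0.563). The probe set 1555372_at read 2.62, 3.34, 2.73, 0.72 and 2.29 with RA plus TNF, against 4.47, 3.51, 3.87, 2.29 and 2.27 with TNF. RA plus TNF was below TNF, with a difference of -0.94 ± 0.28 (adjusted p = 0.0336), overlap between the groups and -1.05 and -0.77 in the 2 array sets. The call was lost without TNF replicate 1 or 3 or RA plus TNF replicate 1, 3 or 4, at adjusted p-values of up to 0.14. The interaction for this probe set was -1.30 ± 0.38 (adjusted p = 0.185). Over the 33 arrays the 6 probe sets of BCL2L11 correlated with one another at between -0.278 and 0.662.

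**Figure D3:**
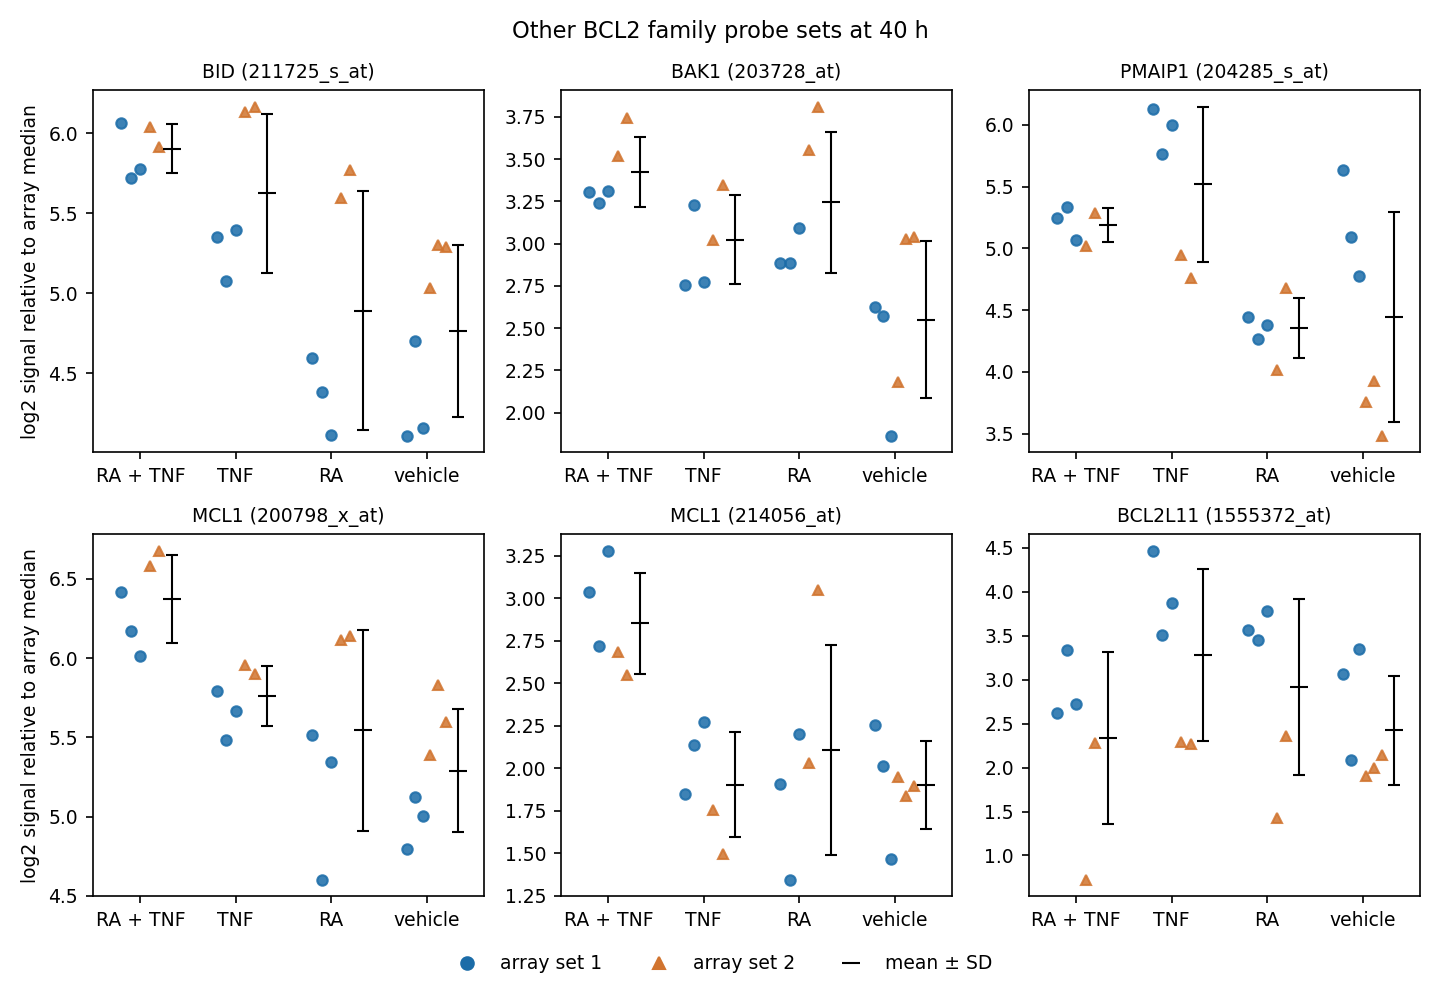
Log2 values relative to the array median at 40 h for probe sets of BID, BAK1, PMAIP1, MCL1 (2 probe sets) and BCL2L11, with 1 point for each array (circles for array set 1, triangles for array set 2) and bars for the mean ± SD of 5 arrays, or 6 for vehicle. BID 211725_s_at reaches 5.72 to 6.06 with RA plus TNF against 4.11 to 5.30 with vehicle, and the vehicle arrays of PMAIP1 part by array set, 4.78 to 5.63 in set 1 and 3.48 to 3.92 in set 2.

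Set against the single treatments, RA plus TNF differed from TNF alone in 5 of the 26 probe sets, 3 higher (BCL2A1 and the 2 of MCL1) and 2 lower (BCL2 and BCL2L11), where 6.08% of all probe sets were called (3.4% higher and 2.68% lower), and 4 of the 26 did not overlap, against 4.6% of all. It differed from RA alone in 7, 6 higher (BCL2A1, the 3 of BID, MCL1 and PMAIP1) and 1 lower (BCL2), where 9.54% of all were called (5.6% higher and 3.94% lower), and 5 did not overlap, against 4.64% of all. The interaction of RA with TNF was called for 0 of the 26 by limma, against 0.249% of all probe sets (0.143% higher and 0.106% lower). At an unadjusted p under 0.05 there were 5 of the 26: BCL2A1, 2 probe sets of BCL2L11 and 2 of MCL1. The share of all probe sets at that threshold was not counted. In the family the joint effect of the agents was thus not told apart from the sum of their effects on the log2 scale.

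The time course followed the family over time with RA. Its vehicle wells were harvested at 16 h or 40 h, so the 2 h and 6 h points have no vehicle of their own time. At these points an effect of RA cannot be told apart from time in culture, here and in the gene lists below. Its reference is the 8 vehicle wells, and centring on the array median shifted all probe sets: the median log2 fold change over all 27307 was 0.33 for 2 h, 0.37 for 6 h, -0.17 for 16 h and 0.14 for the 40 h point. Recovered array medians were 24.4 and 22.1 units at 2 h and 25.6 and 18.9 at 6 h, against 24.8 to 35.6 among the 8 vehicle arrays. Values after quantile normalization, which brought these medians to between -0.04 and 0.04, are therefore given beside the main ones. The 40 h arrays are shared with the comparisons above, as are all vehicle arrays between the time points.

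BCL2A1 read -0.64 at the lowest, 0.51 at the median and 1.03 at the highest in the 8 vehicle wells. It read 0.12 and 0.94 at 2 h, 1.03 and 1.61 at 6 h, 2.74, 2.85 and 3.02 at 16 h, and 3.61 and 3.80 at 40 h. The 16 h and 40 h wells lay above all vehicle wells and apart from each other. The fold changes were 0.20 ± 0.38 at 2 h (adjusted p = 0.782), 1.00 ± 0.38 at 6 h (0.115), 2.54 ± 0.33 at 16 h (8.19e-06) and 3.38 ± 0.38 at 40 h (7.15e-07). Quantile normalization gave 0.12, 0.80, 2.79 and 3.29, with the last 2 called.

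BCL2 (203685_at) read 4.85 at the lowest, 5.31 at the median and 5.51 at the highest in the vehicle wells. It read 5.21 and 5.27 at 2 h, 4.32 and 4.86 at 6 h, 4.21, 4.59 and 5.00 at 16 h, and 3.96 and 4.61 at 40 h. Only the 40 h wells lay below every vehicle well. The fold changes were 0.02 ± 0.22 at 2 h (adjusted p = 0.972), -0.63 ± 0.22 at 6 h (0.0877), -0.62 ± 0.19 at 16 h (0.0534) and -0.94 ± 0.22 at 40 h (0.00907). After quantile normalization they were -0.36 (adjusted p = 0.682), -1.08 (1.45e-04), -0.46 (0.0371) and -1.10 (5.88e-05), so the fall was called from 6 h on in that setting. The call at 40 h was lost without RA replicate 4 (adjusted p = 0.354) and with the 5 vehicle wells of 16 h as the only vehicle (0.0722).

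Counted over the family, 0 of 26 probe sets were called at 2 h by limma, where 0.571% of all probe sets were (0.553% higher and 0.0183% lower). At an unadjusted p under 0.05 there were 7, on a scale where all probe sets were shifted by a median of 0.33. The share of all probe sets at that threshold was not counted. Quantile normalization called none at 2 h either. Groups did not overlap for 4 of the 26 at 2 h, against 17.8% of all probe sets, for 6 at 6 h (15.6% of all), for 1 at 16 h (6.72% of all) and for 5 at 40 h (10.7% of all). At 6 h 3 rose and none fell (4.95% of all called, 4.83% higher and 0.128% lower): BAK1 by 0.95 ± 0.25 (adjusted p = 0.0238), MCL1 200798_x_at by 0.87 ± 0.23 (0.0287) and PMAIP1 204286_s_at by 0.94 ± 0.28 (0.0495). The ACTB 3' to 5' ratio, on the log2 scale, was 0.299 and 0.126 in these 6 h wells (0.299 and 0.149 at 2 h), against 0.19 to 0.996 in the vehicle wells, and its part in the calls was not tested. All 3 stand on the shifted scale: after quantile normalization they were 0.51, 0.42 and 0.51 with adjusted p-values of 0.327, 0.154 and 0.332. Without RA replicate 2 at 6 h, the array with the median of 18.9 units, the adjusted p-values of BAK1, MCL1 and PMAIP1 reached 0.746, 0.971 and 0.976, with 1 well left that was taken to vary like the other groups. MCL1 was also lost without vehicle replicate 4 of 40 h (0.052), and PMAIP1 without vehicle replicates 4, 5 or 6 of 40 h or 1 or 5 of 16 h (up to 0.0807). At 16 h 2 rose and none fell (4.75% of all called, 1.68% higher and 3.07% lower), BCL2A1 and MCL1 214057_at. At 40 h 1 rose and 1 fell (3.51% of all called, 3.01% higher and 0.502% lower), BCL2A1 and BCL2.

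The probe set 214057_at of MCL1 read 1.27 at the lowest, 1.68 at the median and 2.52 at the highest in the vehicle wells, 1.33 and 1.71 at 2 h, 2.03 and 1.90 at 6 h, 2.88, 2.53 and 2.49 at 16 h, and 2.26 and 2.58 at 40 h. It rose by 0.88 ± 0.24 at 16 h (adjusted p = 0.0317, and 0.0156 after quantile normalization), with 1 vehicle well at 2.52 inside the range of the 16 h wells. The call was lost without RA replicate 1, 2 or 3 at 16 h or vehicle replicate 2, 3 or 4 of 16 h, at adjusted p-values of up to 0.191. BCL2L1, BCL2L11, BID and BAX had no call at any time point. Quantile normalization called BID 211725_s_at and 227143_s_at at 16 h (0.29 and 0.44, adjusted p = 0.0367 and 0.0218), BID 227143_s_at at 40 h (0.46, adjusted p = 0.0477) and MCL1 200797_s_at at 40 h (0.33, adjusted p = 0.00849).

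**Figure D4:**
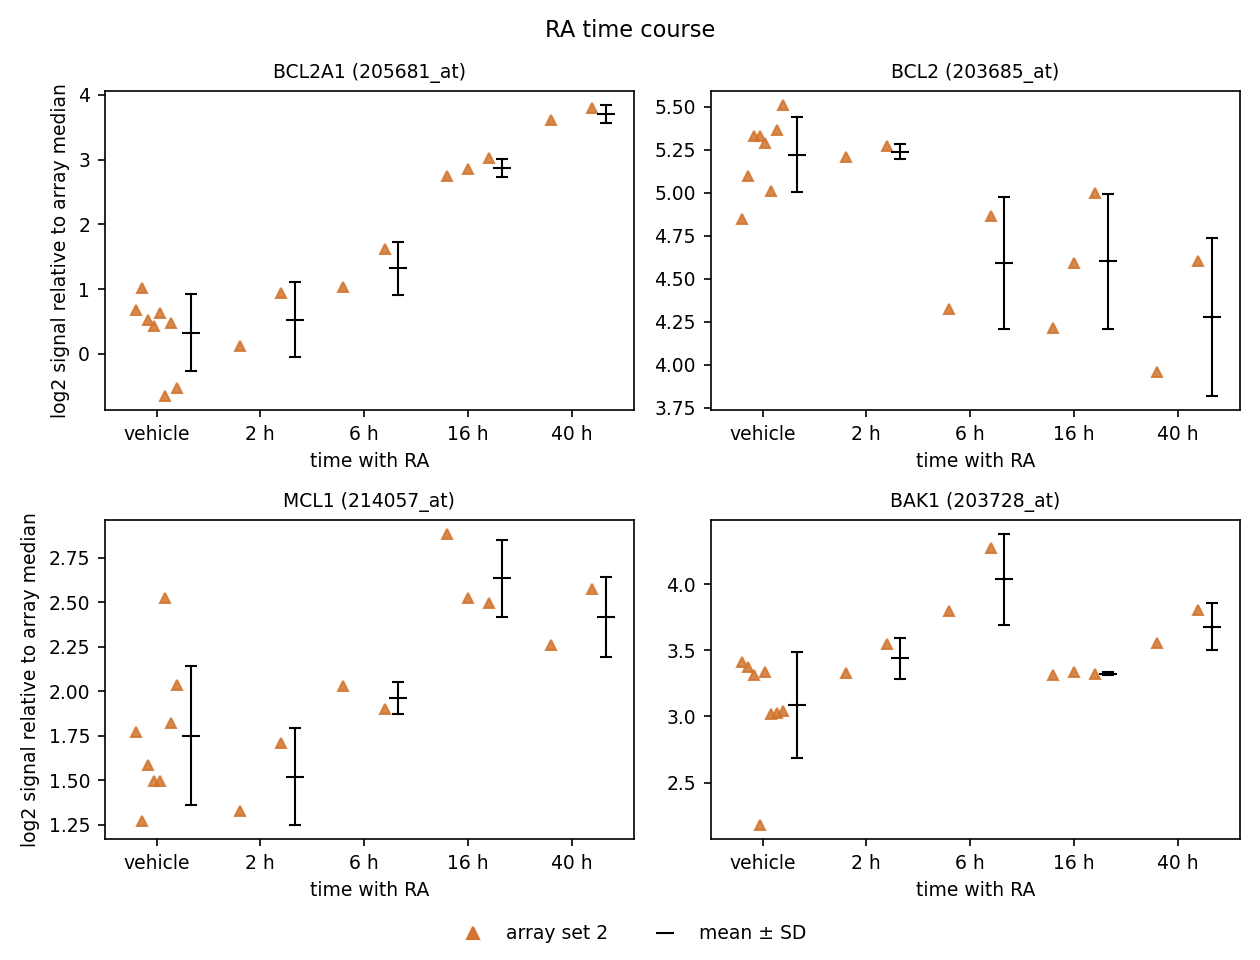
Log2 values relative to the array median over time with RA for BCL2A1, BCL2 (203685_at), MCL1 (214057_at) and BAK1, with 1 triangle for each array, all of array set 2, and bars for the mean ± SD of 8 vehicle, 2 (2 h), 2 (6 h), 3 (16 h) and 2 (40 h) arrays. BCL2A1 lies at 2.74 to 3.80 from 16 h on, above all vehicle arrays, and BAK1 is at 3.79 and 4.28 at 6 h, where array centring shifted all probe sets up by a median of 0.37.

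The members differed in how their values ran together over the 33 arrays. Between probe sets of highest signal, BCL2 and BCL2A1 had r = -0.844 and BCL2 and PMAIP1 -0.608. BID and MCL1 had r = 0.737, BAX and MCL1 0.732, and BAK1 and MCL1 0.71. These are descriptions over arrays that share treatments, array sets and array centring. Of 12865 genes past the filter, those most like BCL2 by Pearson's r over the 33 arrays were NREP (0.95), ZFR (0.95) and CPT1A (0.944). Those most like BCL2A1 were ACSL1 (0.928), ALAS1 (0.924) and FNDC3B (0.915). For BID they were PRELID1 (0.95), CYB5R2 (0.948) and TOR3A (0.927), and for MCL1 they were ZFAND5 (0.917), GYG1 (0.91) and KLF13 (0.909). PMAIP1 was nearest to SESN2 (0.915), ME1 (0.905) and XAF1 (0.895). Likeness was lower for BAK1, with RAB3D (0.838), BLOC1S2 (0.836) and CYRIB (0.832), and for BCL2L11, with RRAGC (0.815), GFPT1 (0.777) and ANKFY1 (0.773).

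The rest of the pathway was followed in lists of genes, each through its probe set of highest signal. Shares given for all probe sets are those of the same comparison. Of 8 tested further family members, 2 rose and 1 fell with RA plus TNF over vehicle, where 9.15% of all probe sets were called higher and 5.75% lower. Their median log2 fold change was 0.26, against 0.04 over all. BMF, a BH3-only protein that binds survival members, rose by 3.01 ± 0.47 (adjusted p = 1.44e-05, all wells above vehicle), and over TNF alone it stood at 1.64 ± 0.49 (adjusted p = 0.0402), a call kept in 1 of 10 fits that left out an array, with adjusted p-values of up to 0.137. BNIP3L, a mitophagy receptor, rose by 0.78 ± 0.18 over vehicle (adjusted p = 0.00176) and by 0.78 ± 0.18 over TNF (adjusted p = 0.00679). For RA plus TNF over TNF 3.4% of all probe sets were called higher. BIK, a BH3-only protein of the endoplasmic reticulum, fell by 1.44 ± 0.18 with both agents (adjusted p = 1.54e-07) and by 1.36 ± 0.18 with TNF (adjusted p = 1.22e-06), the 1 call among the 8 with TNF alone, where 2.98% of all were called lower. RA alone called 0 of the 8 by limma (2.86% of all called), with 1 at an unadjusted p under 0.05.

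Downstream of the pore, 14 caspase and apoptosome genes were tested, and 1 rose with RA plus TNF over vehicle, a share below the 9.15% of all probe sets called higher: CYCS, which encodes cytochrome c, by 0.49 ± 0.17 (adjusted p = 0.042, kept in 5 of 11 fits that left out an array, up to 0.155). With TNF alone 1 fell (2.98% of all were called lower), APAF1, the apoptosome scaffold, by 0.61 ± 0.19 (adjusted p = 0.0435, kept in 3 of 11 such fits, up to 0.133). With RA alone 0 were called (2.86% of all), with 3 at an unadjusted p under 0.05. In the time course 3 of the 14 were called higher at 6 h of RA, namely CASP9, CASP8 and AIFM1 (4.83% of all called higher). At 16 h 1 was, CASP9 (1.68% of all). CASP9, the initiator caspase of the apoptosome, rose by 1.05 ± 0.22 at 6 h of RA (adjusted p = 0.00367) and by 0.70 ± 0.19 at 16 h (adjusted p = 0.0268), and stood at 0.64 and 0.87 after quantile normalization, both called. The first was lost without RA replicate 2 at 6 h (adjusted p = 0.234) and the second without RA replicate 1, 2 or 3 at 16 h (up to 0.133).

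Of 6 tested inhibitor of apoptosis proteins 1 rose with RA plus TNF (9.15% of all called higher) and 1 with RA alone (2.06% of all). XIAP, which binds caspases, rose by 0.76 ± 0.22 with RA plus TNF (adjusted p = 0.0146, lost without RA plus TNF replicate 1 or 5 or vehicle replicate 3, up to 0.0673) and by 0.79 ± 0.22 with RA alone (adjusted p = 0.0397, kept in 4 of 11 fits that left out an array, up to 0.134). In the time course XIAP rose by 1.27 ± 0.22 at 6 h (adjusted p = 4.78e-04, and 0.00352 after quantile normalization), a call lost without RA replicate 2 at 6 h (0.0789). NAIP fell by 0.95 ± 0.22 with TNF alone (adjusted p = 0.00386) and was higher by 0.97 ± 0.23 with RA plus TNF than with TNF (adjusted p = 0.00656). Of all probe sets 2.98% were called lower with TNF alone, and 3.4% were called higher for RA plus TNF over TNF. The other 4 had no call in any comparison at 40 h.

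Of 9 tested genes of death receptors and their complexes, 2 rose and 1 fell with RA plus TNF over vehicle, against 9.15% of all probe sets called higher and 5.75% lower. TNFRSF1B, the second TNF receptor, rose by 1.29 ± 0.18 (adjusted p = 2.87e-06) and TNFRSF10B, a receptor for TRAIL, by 1.11 ± 0.22 (adjusted p = 4.46e-04). TNFSF10, which encodes TRAIL, fell by 1.32 ± 0.27 (adjusted p = 4.73e-04), and its difference of both agents from TNF was -1.31 ± 0.28 (adjusted p = 0.00223, with 2.68% of all called lower there). With TNF alone 1 rose (4.8% of all called higher), TNFRSF10B by 1.21 ± 0.22 (adjusted p = 3.55e-04), and RA alone called 0 (2.86% of all called), with 2 at an unadjusted p under 0.05.

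Among 9 tested upstream regulators, 3 rose with RA plus TNF over vehicle and none fell, against 9.15% of all probe sets called higher and 5.75% lower. CDKN1A, the cell cycle inhibitor p21, rose by 1.14 ± 0.17 (adjusted p = 8.77e-06), NFKB1, a subunit of NF-kB, by 1.27 ± 0.17 (adjusted p = 8.82e-07), and REL, another subunit, by 0.56 ± 0.16 (adjusted p = 0.0125). RA alone called CDKN1A (0.64 ± 0.17, adjusted p = 0.0356, kept in 6 of 11 fits that left out an array, up to 0.185) and REL (0.66 ± 0.16, adjusted p = 0.0107), and TNF alone called NFKB1 (1.27 ± 0.17, adjusted p = 2.26e-06). Of all probe sets 2.06% were called higher with RA alone and 4.8% with TNF alone. Of a list of 6 genes, made up of ubiquitin pathway genes linked to MCL1 turnover and of PCNA, 0 were called at 40 h by limma, with 1 at an unadjusted p under 0.05 (for RA plus TNF over TNF). Between 0.249% and 14.9% of all probe sets were called in the comparisons at 40 h. At 16 h of RA the 1 that fell was PCNA, the DNA replication clamp, which does not degrade MCL1, by 0.60 ± 0.17 (adjusted p = 0.0443, kept in 3 of 11 fits that left out an array, up to 0.144). There 3.07% of all probe sets were called lower.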

How the data were processed

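Signals came from GCOS, per the submitters' processing notes, whose version and settings are not given in the sources used here. On the deposited log2 scale 0 is the median of an array, as read from the values: signals recovered with each array's lowest value as 1 unit were multiples of 0.1. Any change in total RNA per cell is removed by such scaling, and the number of arrays limits the precision. No detection calls were used here.

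Values entered limma 3.58.1 (R 4.3.3; lmFit, eBayes with trend) as deposited. The 62 AFFX controls and probe sets whose mean linear value was below the median of all (0.882 at 40 h, 0.891 in the time course) were left out. The 40 h fit had 21 arrays, the array set as covariate and 16 residual degrees of freedom, and the time course 17 arrays and 12. All p-values were adjusted by the Benjamini-Hochberg method over 27307 probe sets, unless called unadjusted. Of 54613 probe sets 41091 had a single symbol, 1801 several and 11721 none in the GEO annotation, and 41037 matched the RefSeq gene table.

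Promoter sequences were matched by symbol. All members were named with every probe set of their own, with up to 4 called genes of each list and the 3 genes most like each called member. The members and lists were chosen with earlier results of these data known. Alternatives were quantile normalization, the software's signal scale, no filter, the replicate number as a block, each array set alone, the brightest probe set of each gene, other vehicle arrays and leaving out each array. The fit was tested on simulated data of 27307 probe sets, of which 27107 were left unchanged. For TNF against vehicle 43 of 100 changes of size 1 on the log2 scale and 77 of 100 of size 2 were recovered, with 1 false call. For RA at 16 h 43 of 100 and 79 of 100 were recovered, with 8 false calls. In the data a larger share was called (7.79% with TNF), so these rates need not hold there. Same-numbered arrays deviated together at a median r of -0.0615 at 40 h and 0.0324 in the time course. For arrays of different numbers it was 0.038 and -0.0152. In the time course 3 of 17 same-numbered pairs and 0 of 85 others had an r over 0.1. The numbers were not used as pairs in the main fits. The labels do not say that a shared number marks wells grown together, so this cannot decide on other pairings.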

Additional observations from a re-analysis of the deposited data

Results flagged for a closer look

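In 6 of the 130 sets of 5 or 6 arrays checked, 1 array stood far from the others of its group, and chance alone gives about 1 such set in 20. BCL2 203685_at read 3.01 in RA plus TNF replicate 5, above the next array at 2.25. BCL2 203684_s_at read -4.76 in RA plus TNF replicate 1, next to -0.98, and -0.42 in vehicle replicate 3 at 40 h, next to 1.09. The first of these is 1.1 signal units, close to the floor of 1 unit. Vehicle replicate 3 at 40 h was also the lowest for MCL1 200797_s_at, at 5.87 next to 6.66, and its array had the highest median of all, 45.2 units, with 13 probe sets at the floor. BCL2L1 215037_s_at read -3.93 in vehicle replicate 2 at 40 h, which is 2.1 signal units and also near the floor, next to 0.74. BAK1 read 3.02 in vehicle replicate 5 at 16 h, next to 3.31.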

How the results depend on the processing

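These are counts of called probe sets of the family. They are given without the share of all probe sets called in the same setting. So they show how the family's count moved, and not whether the family stood out. For RA plus TNF against vehicle the 10 calls became 5 with 1 probe set per gene, which has fewer probe sets to call, and 8 to 11 with an array left out. For TNF the 8 became 5 in array set 1 alone, 4 with 1 probe set per gene and 6 to 9 with an array left out. For RA the 3 became 1 in set 1 alone and 2 to 3 with an array left out. RA plus TNF over TNF went to 2 in set 2 alone, 2 with 1 probe set per gene and 3 to 5 with an array left out, and RA plus TNF over RA to 3, 4 and 6 to 10. The interaction had 1 call in set 1 alone and 0 to 1 with an array left out. The causes were not tested, but a single set holds fewer arrays. At 2 h the count was 0 to 1 with an array left out. At 6 h the 3 calls became 1 under quantile normalization and 1 on the signal scale, 0 with the replicate block, 0 with the 16 h vehicle alone and 0 to 7 with an array left out. At 16 h the 2 became 5 under quantile normalization, 4 on the signal scale, 1 without the filter, 1 with the 16 h vehicle alone and 1 to 3 with an array left out. At 40 h of the time course the 2 became 4 under quantile normalization, 1 with the 16 h vehicle alone and 1 to 2 with an array left out. The replicate block gave 9 calls for both agents, 7 for TNF, 3 for RA, 5 and 7 for both over TNF and RA, 0 for the interaction, 0 at 2 h, 2 at 16 h and 2 at 40 h. Single called results, each a probe set in 1 comparison, were followed for the family and for the named genes of the lists together, treatment targets included. Under quantile normalization 12 lost their call and 99 kept it, with the same numbers on the signal scale. Without the filter 16 lost it and 95 kept it, and with the block 22 and 89. Array set 1 alone lost 26 and kept 54, and set 2 alone lost 25 and kept 55. With the 16 h vehicle alone 15 lost it and 16 kept it. None turned its direction in these settings.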
